A study of Mus musculus with 3 samples.

Results

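The Wnt ligands, receptors and antagonists were examined in cells of a murine small cell lung cancer (SCLC) whose Kdm1a gene was knocked out. Members were the genes of the deposited expression table whose symbol belongs to the Wnt, Fzd, Lrp5 and Lrp6, Dkk, Dkkl1, Sfrp, Wif1, Notum, Kremen, Rspo, Lgr4 to Lgr6, Znrf3, Rnf43, Axin, Nkd, Ctnnb1, Tcf7, Tcf7l1, Tcf7l2 and Lef1 families. They numbered 62 of 24523 genes, and a gene was a member by its symbol alone. SCLC is a tumour of the lung with mostly neuroendocrine cells. The product of Kdm1a, LSD1, takes methyl groups off histones. The groups were the Kdm1a knock-out (2 libraries, guides sg1 and sg2, titled Kdm1a-sg1 and Kdm1a-sg2) and the control (1 library, titled Crispr-V2, with no guide named). All 3 libraries came from the SCLC#3 cell line, infected with a Lenti-Crispr vector and kept under puromycin for 1 week or longer. The cells were pools of 1 line, each guide was sequenced once, and nothing in the labels says whether cultures were repeated. In edgeR's test, the gap between the 2 guide libraries gives each gene 1 residual degree of freedom. The spread estimated over all genes adds 11.5 prior degrees of freedom, so most of the spread used for a p-value is shared across genes. The lone control is assumed to vary as the guide libraries do.

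Wnt proteins are secreted, lipid-modified ligands that bind a Frizzled (Fzd) receptor together with the co-receptors Lrp5 or Lrp6. In the canonical branch this halts the destruction complex built on Axin, so that beta-catenin (Ctnnb1) accumulates and joins Tcf and Lef factors on target genes. Secreted antagonists act on the ligands (Sfrp, Wif1, Notum) or on Lrp5 and Lrp6 (Dkk, with Kremen), while R-spondins act through Lgr receptors on Znrf3 and Rnf43, ubiquitin ligases that remove Frizzled receptors. In the lung, Wnt signals take part in the development of the airways and the alveoli and in their upkeep.

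Count totals were 44667861 with sg1, 51066078 with sg2 and 43424212 in the control. Kdm1a itself had 29.1 and 36.7 RPKM with sg1 and sg2, against 86.8 RPKM in the control. RPKM are read counts scaled to gene length and library size, as deposited by the authors. This difference missed the threshold (log2 fold change -1.40, SE 0.404, edgeR adjusted p = 0.0537), and passed it in 4 of 9 other analyses (adjusted p from 0.0166 to 0.127). Of 12 neuroendocrine marker genes, all had at least 10 counts in every library, and their summed level was 1495 and 1092 RPKM in the knock-out, against 2056 RPKM in the control. Of 11 genes of fibroblasts and mesenchyme, 9 with sg1 and 8 with sg2 reached 10 counts, against 5 in the control. Their summed level was 390 and 476 RPKM in the knock-out libraries, against 7.62 RPKM in the control. Of the 9 tested 6 were called higher and none lower. Among the defining genes, Col1a1 had 10119 and 2752 counts with sg1 and sg2, against 4 in the control, and Vim had 11713 and 32362, against 0. Pdgfrb had 3754 and 2486 counts, against 13, while Lum was at 0 in all libraries, Postn had 0, 2 and 1 counts, and Col1a2 had 15 and 6, against 0. Of 7 alveolar and club cell genes 2 rose and 1 fell, with a summed level of 54.3 and 25.2 RPKM in the knock-out, against 5.04 RPKM in the control. Endothelial genes summed to 2.02 and 4.49 RPKM, against 0.152 RPKM, of which Kdr alone gave 1.76 and 4.36 RPKM, against 0.0377 RPKM. Counts with sg1, sg2 and in the control were 21, 1 and 7 for Pecam1 and 23, 16 and 7 for Tek. They were 1, 11 and 0 for Cdh5 and 0, 0 and 2 for Emcn. Immune genes summed to 9.89 and 6.21 RPKM, against 4.76 RPKM, with Ptprc at 0, 1 and 0 counts. The mesenchymal and alveolar sums, and the endothelial sum mainly through Kdr, were higher in the same libraries as the Wnt members that rose. The part of these genes in those results was not tested. In bulk RNA, fewer cells of a type and less RNA per cell cannot be told apart.

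Of the 52 members tested, 14 were higher in the knock-out and 1 was lower. The 14 that rose were the ligands Wnt4, Wnt5a and Wnt6, the receptors Fzd1, Fzd2, Fzd7 and Fzd8, the antagonists Dkk2, Sfrp2 and Wif1, Rspo1 and Rnf43 of the R-spondin axis, and the transcription factors Lef1 and Tcf7l2. The member that fell was Axin2, a scaffold of the destruction complex and a widely used readout of canonical signalling. Of 20 other tested genes described as targets of beta-catenin and Tcf, 7 (35%) were higher and 1 (5%) lower. The shares over all genes tested were 6.33% and 1.7%, and 4 of the 7 had fewer than 10 control counts. Whether the activity of the pathway differed was not tested. Ctnnb1, Axin1, Lrp5 and Lrp6 did not pass, with log2 fold changes between -0.28 and 0.03. Lef1 and Tcf7l2, which act in the same canonical branch, were among the members that rose. Calls are at an adjusted p under 0.05 in edgeR's quasi-likelihood test, adjusted over all 15936 genes tested.

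The share of higher calls was 26.9% of the members tested, beside 6.33% of all genes tested. The share of lower calls was 1.92%, beside 1.7% of all genes, so the number of lower members was near the background. The median log2 fold change was 1.52 in the members tested and 0.06 over all genes tested. The member median was also 1.52 with genes at 0 in the control set to their lower bound. Both the shares and the median draw on genes that were near 0 in the control. Of the 62 members, 10 were too low to be tested, and 18 of the 52 tested had fewer than 10 counts in the control. The filter let those in through the knock-out libraries, so at least 1 knock-out library had to lie above the control. Among them 7 of 18 (38.9%) were called higher, beside 32.4% of all genes with so few control counts. Among the 34 members with at least 10 control counts, 7 (20.6%) were called higher, beside 3.73% of all such genes. The median log2 fold change of these 34 was 0.15, beside -0.02 over all such genes, and that of the 18 was 5.40, beside 6.0. This split was chosen after the values were seen. The number of calls depended on the test: limma-voom called 7 members higher, the DESeq2 Wald test 17, and limma-trend on log2(RPKM + 1) called 0, with 17 higher at an unadjusted p under 0.05. No share of all genes was set beside the 17 of the DESeq2 Wald test or the 17 of limma-trend. Among 9 other analyses, limma-trend lost every member call. The call of Wnt4 was also lost with limma-voom and with the gene length trend removed (adjusted p up to 0.146), and those of Wnt6, Dkk2, Wif1, Rnf43 and Lef1 with limma-voom (up to 0.370 for Rnf43). Rspo1 was lost in 5, and the remaining 7 higher members in limma-trend alone.

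**Figure D1:**
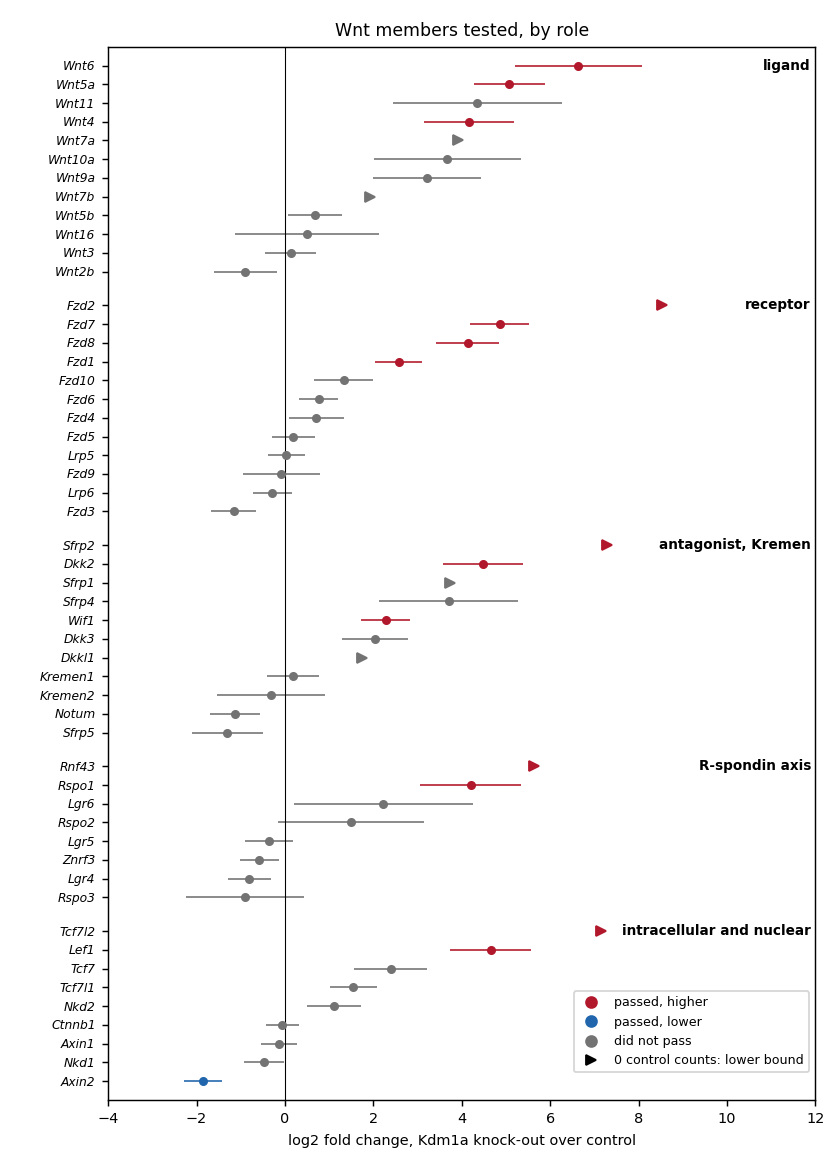
Fitted log2 fold change of the 52 members tested, Kdm1a knock-out over control (x axis), by role (y axis); circles carry ± 1 SE, and triangles are lower bounds for genes with 0 control counts. The 14 red members lie to the right of 0 and occur in all 5 roles, while Axin2, in blue, lies at -1.85.

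The ligands were considered first. Wnt5a, which acts mainly outside the beta-catenin branch, had 1059 and 552 counts with sg1 and sg2, against 22 in the control. Its level was 5.37 and 2.45 RPKM in the knock-out, against 0.115 RPKM in the control. The knock-out mean was 3.91 ± 2.07 RPKM (SD, n = 2), and the rise was 33.9-fold (log2 5.07, SE 0.801, edgeR adjusted p = 0.00135). Both knock-out libraries lay far above the control. For this and the other called members, that position largely follows from the call, made on the same libraries. The level with sg1 was 2.15 times that with sg2 (95% counting interval 1.94 to 2.39). Such intervals reflect counting error alone, because PCR copies were not marked by molecular identifiers.

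Wnt4, a ligand of kidney and gonad development, had 149 and 212 counts with sg1 and sg2, against 9 in the control (18.1-fold, log2 4.16, SE 1.01, edgeR adjusted p = 0.0231). Wnt6 had 78 and 172 counts, against 1 in the control, a pooled ratio of 113 with a counting interval of 20.2 to 4492 (edgeR adjusted p = 0.0114). Groups did not overlap for either gene, as largely follows from the call. At 0.865 and 1.07 RPKM for Wnt4, and 0.837 and 1.61 RPKM for Wnt6, both remained below Wnt5a per unit of length in each knock-out library.

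The most abundant ligands of the control did not pass. Wnt3, a canonical ligand, had 3.45 and 2.2 RPKM with sg1 and sg2, against 2.58 RPKM in the control (log2 0.13, SE 0.584, edgeR adjusted p = 0.954). Wnt5b, the paralogue of Wnt5a, had 3.50 and 3.00 RPKM, against 2.02 RPKM in the control (log2 0.68, SE 0.618, edgeR adjusted p = 0.668). Wnt2b had 2.02 and 0.602 RPKM, against 2.43 RPKM in the control. The control value of Wnt3 thus lay between the guides, while those of Wnt5b and Wnt2b lay outside them.

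Of the 19 ligands, 12 were tested. Wnt7a, a ligand known from limb and brain development, had 19 and 85 counts with sg1 and sg2, against 0 in the control. Its knock-out mean was 15.2-fold above the limit of 3 control counts. It missed the threshold narrowly (edgeR adjusted p = 0.0512), with adjusted p from 0.00437 to 0.509 over the other analyses. Wnt11 had 25 and 25 counts, against 1, and Wnt9a had 75 and 69 counts, against 7. Wnt10a had 10 and 111 counts, against 4, and Wnt7b had 3 and 23, against 0. All 4 lay above the control in both knock-out libraries without passing the test. They had fewer than 10 control counts, where 77.7% of all genes tested were at least 1.5-fold higher with both guides. With sg1 the counting interval of the ratio to the control reached down to 0.693 for Wnt10a and 0.397 for Wnt7b. Wnt16 had 10 and 12 counts, against 7 in the control. Wnt3a, Wnt9b and Wnt10b were at 0 in all 3 libraries, and Wnt1, Wnt2, Wnt8a and Wnt8b had at most 5 counts in any library.

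Summed over the ligands, the level was 17.2 and 13.4 RPKM with sg1 and sg2, against 7.45 RPKM in the control. Wnt5a made up 31.3% and 18.2% of that sum in the knock-out libraries, against 1.54% in the control. Wnt2b made up 11.8% and 4.48% of it in the knock-out, against 32.6% in the control, and Wnt3 made up 20.1% and 16.4%, against 34.6%. The ligand ranked highest per unit of length was Wnt5a with sg1, Wnt5b with sg2 and Wnt3 in the control.

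The receptors were considered next. Of 10 Frizzled genes 4 rose. Fzd2, at 598 and 1898 counts with sg1 and sg2, had 0 counts in the control, so that its knock-out mean was at least 367-fold higher (edgeR adjusted p = 0.00014). Fzd7, a receptor of stem and progenitor cells in several tissues, had 7.67 and 16.2 RPKM in the knock-out, against 0.413 RPKM in the control (1663, 4011 and 87 counts; 29.0-fold, log2 4.85, SE 0.675, edgeR adjusted p = 0.000589). For both genes sg2 was higher than sg1, with sg1 at 0.353 of sg2 for Fzd2 (counting interval 0.322 to 0.387) and at 0.465 for Fzd7 (0.438 to 0.492).

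Fzd8 had 515 and 782 counts with sg1 and sg2, against 33 in the control (17.7-fold, log2 4.14, SE 0.716, edgeR adjusted p = 0.00256). Fzd1, the closest relative of Fzd2 and Fzd7, had 1651 and 1653 counts, against 252 in the control (5.96-fold, log2 2.57, SE 0.532, edgeR adjusted p = 0.00847). Each lay above the control in both knock-out libraries. Fzd1, Fzd2 and Fzd7 are near relatives in sequence, and how the authors treated reads that fit several genes is not given in the sources used here.

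The 6 other Frizzled genes did not pass. Fzd3, which acts in axon guidance and planar polarity, had 7.40 and 2.92 RPKM with sg1 and sg2, against 11.5 RPKM in the control (log2 -1.16, SE 0.505, edgeR adjusted p = 0.236). Fzd3 has the longest transcript of the members, 12.9 kb as implied by counts over RPKM, and long genes were lower as a group in sg2. Among 13416 genes with a mean count of at least 50, the 2684 longest had a median log2 fold change of -0.12 with sg1 and -0.48 with sg2, beside 0.01 and 0.06 over all 13416. With the length trend removed the value of Fzd3 was -0.65. Fzd6, the most abundant Frizzled gene over the 3 libraries, had 15.8 and 12.5 RPKM, against 8.37 RPKM in the control (log2 0.76, SE 0.447, edgeR adjusted p = 0.432). Fzd10 had 429 and 338 counts, against 140, and Fzd4 690 and 377, against 301. Fzd5 and Fzd9 lay on opposite sides of the control with the 2 guides.

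The make-up of the receptor family thus differed between the libraries. Summed over the 10 genes, the level was 59.7 and 62.0 RPKM with sg1 and sg2, against 29.4 RPKM in the control. Fzd3 was 12.4% and 4.70% of the sum in the knock-out, against 39.1% in the control, where it ranked first. Fzd7 was 12.8% and 26.1% of it, against 1.41%. Fzd6 ranked first with sg1 and Fzd7 with sg2.

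The co-receptors held their level more closely. Lrp5 had 31.3 and 24.5 RPKM with sg1 and sg2, against 27.3 RPKM in the control (log2 0.03, SE 0.418, edgeR adjusted p = 0.987). Lrp6 had 10.6 and 6.99 RPKM, against 10.7 RPKM in the control (log2 -0.28, SE 0.434, edgeR adjusted p = 0.828). Changes of several SEs could be missed with 3 libraries, as that of Kdm1a was (log2 -1.40, SE 0.404).

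The antagonists were grouped with Kremen1 and Kremen2, membrane receptors of Dkk proteins, and 3 of these 11 tested genes rose, all secreted. Sfrp2, which binds Wnt ligands, had 536 and 486 counts with sg1 and sg2, against 0 in the control. Its mean was 155-fold above the limit of 3 control counts (edgeR adjusted p = 0.000152). Dkk2, a ligand of Lrp5 and Lrp6, had 517 and 254 counts, against 16 (22.3-fold, log2 4.47, SE 0.906, edgeR adjusted p = 0.00745). Wif1, which also binds Wnt ligands, had 10.5 and 9.51 RPKM in the knock-out, against 2.06 RPKM in the control (4.86-fold, log2 2.28, SE 0.559, edgeR adjusted p = 0.0235). Wif1 had the highest level of the antagonists in both knock-out libraries. The guides agreed on it within counting error, with a ratio of sg1 to sg2 of 1.08 (0.992 to 1.18).

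Notum, an enzyme that removes the lipid of Wnt proteins, was the most abundant antagonist of the control. It had 3.53 and 2.23 RPKM with sg1 and sg2, against 6.28 RPKM in the control, below it with both guides (log2 -1.13, SE 0.570, edgeR adjusted p = 0.334). Sfrp5 lay on the same side, with 62 and 68 counts, against 146 (edgeR adjusted p = 0.46). Sfrp1 had 59 and 27 counts, against 0 in the control, on average 13.3-fold above the limit of 3 control counts. It missed the threshold (edgeR adjusted p = 0.054, and from 0.00825 to 0.557 over the other analyses). Dkk3 had 330 and 265 counts, against 66, Sfrp4 21 and 71, against 3, and Dkkl1 2 and 21, against 0. None of these 3 passed. Sfrp1, Sfrp4 and Dkkl1 had fewer than 10 control counts, where 77.7% of all genes tested were at least 1.5-fold higher with both guides. Kremen1 had 1.85 and 4.17 RPKM, on either side of the 2.67 RPKM of the control, and Kremen2 had 20, 28 and 27 counts with sg1, sg2 and in the control. Dkk1 and Dkk4 had at most 4 counts in any library.

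Of 8 tested genes of the R-spondin axis 2 rose. Rnf43, one of the ligases that remove Frizzled receptors, had 64 and 275 counts with sg1 and sg2, against 0 in the control. Its mean was at least 49.6-fold higher (edgeR adjusted p = 0.00553), with sg1 at 0.261 of sg2 (counting interval 0.195 to 0.343). Rspo1, a secreted agonist, had 140 and 106 counts, against 6 (18.8-fold, log2 4.20, SE 1.14, edgeR adjusted p = 0.0406), a call lost in 5 of 9 other analyses, with adjusted p up to 0.15. Znrf3, the partner ligase of Rnf43, had 8.20 and 5.39 RPKM, against 10.1 RPKM in the control (log2 -0.58, SE 0.441, edgeR adjusted p = 0.59). Even with the rise of Rnf43, Znrf3 remained the more abundant of the pair in every library.

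Lgr4, an R-spondin receptor, had 2.37 and 2.67 RPKM with sg1 and sg2, against 4.41 RPKM in the control (log2 -0.80, SE 0.487, edgeR adjusted p = 0.451). Lgr5, a marker of intestinal stem cells, had 386 and 711 counts, against 629 (log2 -0.36, SE 0.542, edgeR adjusted p = 0.824). Rspo2 had 19 and 12 counts, against 5, Rspo3 6 and 28, against 28, and Lgr6 15 and 6, against 2, and none passed. Rspo2 and Lgr6 also had fewer than 10 control counts, where 77.7% of all genes tested were at least 1.5-fold higher with both guides. Rspo4, with 0, 0 and 4 counts, was not tested.

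**Figure D2:**
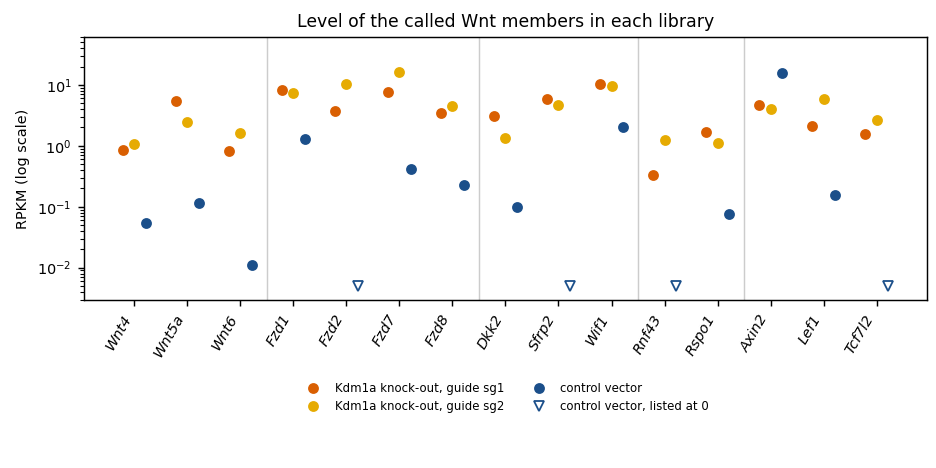
RPKM on a log scale (y axis) of the 15 members that passed the test (x axis, by role) in the Kdm1a knock-out libraries sg1 and sg2 and in the control, 1 point per library; open triangles mark genes listed at 0. For 14 members both knock-out points lie above the control, and for Axin2 both lie below it. As these members were picked by the test of the same libraries, that separation largely follows from the choice.

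Inside the cell the most abundant member was Ctnnb1, with 331 and 294 RPKM with sg1 and sg2, against 325 RPKM in the control (log2 -0.06, SE 0.369, edgeR adjusted p = 0.97). The mRNA does not measure the stabilised protein. Axin1 had 27.0 and 27.8 RPKM, against 29.9 RPKM in the control (log2 -0.13, SE 0.41, edgeR adjusted p = 0.93). Axin2, its inducible relative, had 4.67 and 3.96 RPKM, against 15.5 RPKM in the control (896, 870 and 2897 counts). Its knock-out mean, 4.31 ± 0.502 RPKM (SD, n = 2), was low beside the control, and it fell 3.61-fold (log2 -1.85, SE 0.427, edgeR adjusted p = 0.0164). Both knock-out libraries lay below the control, and the call was lost in 1 of 9 other analyses, limma-trend (adjusted p = 0.161). Nkd1, a further inducible inhibitor, had 11.5 and 6.62 RPKM, against 12.5 RPKM in the control, and Nkd2 had 559 and 413 counts, against 207, and neither passed.

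The 4 Tcf and Lef factors lay above the control with both guides. Tcf7l2, the factor of the intestine, had 324 and 632 counts with sg1 and sg2, against 0 in the control, at least 142-fold higher (edgeR adjusted p = 0.000245). Lef1 had 2.15 and 5.81 RPKM, against 0.158 RPKM in the control (238, 738 and 17 counts; 25.3-fold, log2 4.65, SE 0.92, edgeR adjusted p = 0.00643). Tcf7l1, which acts mainly as a repressor in embryonic stem cells, was the most abundant of the 4 in every library, with 14.0 and 28.4 RPKM, against 7.26 RPKM. It did not pass (log2 1.55, SE 0.539, edgeR adjusted p = 0.117), nor did Tcf7, with 187 and 293 counts, against 41 (edgeR adjusted p = 0.11). Tcf7l1 made up 71.4% and 72.0% of the RPKM of the 4 factors in the knock-out libraries, against 92.7% in the control.

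Promoter windows of Fzd1, Lef1 and Axin2 are shown, the first 2 because they hold a Tcf and Lef motif and Axin2 because it is the member that fell. Windows of 250 bases before to 50 after a transcript start were taken from RefSeq (GRCm38.p6), which held 51 windows for 41 of the 62 members. They were searched on both strands for CTTTGA, a core of Tcf and Lef sites. Capitals mark a match, and the reverse strand reads TCAAAG. The windows are chr5:4758167-4758466 (minus strand) for Fzd1, chr3:131156044-131156343 (plus strand) for the most downstream of 4 Lef1 starts, and chr11:108920099-108920398 (plus strand) for Axin2. This Axin2 window lies inside the gene, downstream of the gene start annotated at base 108917828, whose own window was not among those held.
Fzd1: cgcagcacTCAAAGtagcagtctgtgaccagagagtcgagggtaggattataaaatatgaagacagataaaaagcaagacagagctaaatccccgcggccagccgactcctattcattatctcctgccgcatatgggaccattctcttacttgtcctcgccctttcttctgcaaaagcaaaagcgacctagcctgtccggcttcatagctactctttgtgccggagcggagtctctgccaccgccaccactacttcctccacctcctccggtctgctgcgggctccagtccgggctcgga
Lef1: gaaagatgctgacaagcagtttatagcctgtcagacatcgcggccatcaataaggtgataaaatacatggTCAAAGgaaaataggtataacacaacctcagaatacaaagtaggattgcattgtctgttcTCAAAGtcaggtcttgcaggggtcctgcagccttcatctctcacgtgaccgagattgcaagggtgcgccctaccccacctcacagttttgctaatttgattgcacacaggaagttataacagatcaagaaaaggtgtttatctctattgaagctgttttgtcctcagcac
Axin2: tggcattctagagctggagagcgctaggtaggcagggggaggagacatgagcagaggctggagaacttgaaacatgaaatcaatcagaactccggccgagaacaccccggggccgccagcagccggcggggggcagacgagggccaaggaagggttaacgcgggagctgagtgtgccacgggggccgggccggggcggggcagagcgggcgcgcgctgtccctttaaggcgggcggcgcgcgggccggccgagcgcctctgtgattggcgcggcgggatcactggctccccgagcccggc

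The Fzd1 window held 1 match and this Lef1 window 2, while the 3 other Lef1 windows and the Axin2 window held none, which says only that these letters are not in them. In all, 5 of 51 member windows (9.80%) held the motif, beside 16% of the 32851 windows of all genes. The TEAD core GGAATG was in 2 member windows (3.92%), beside 14.7% of all windows, and the AP-1 motif TGANTCA in 1 (1.96%), beside 7.81%. The last letters of CTTTGA and GGAATG can overlap the first letters of TGANTCA. Of the 16 windows of members that rose, 2 held CTTTGA, namely the 2 shown, and 0 held either of the other motifs. A match is a description of the letters and not a bound site.

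On GRCm38.p6, as annotated by RefSeq, the ligands that passed were Wnt4 at chr4:137277635-137299501, Wnt5a at chr14:28504543-28527448 and Wnt6 at chr1:74754342-74785322. The receptors that passed were Fzd1 at chr5:4753839-4758216, Fzd2 at chr11:102604431-102608058, Fzd7 at chr1:59482147-59486955 and Fzd8 at chr18:9212856-9216201. The antagonists that passed were Dkk2 at chr3:132085266-132180304, Sfrp2 at chr3:83765750-83774314 and Wif1 at chr10:121034004-121100642, and the R-spondin axis held Rnf43 at chr11:87663087-87735539 and Rspo1 at chr4:124986401-125009102. The intracellular members that passed were Axin2 at chr11:108917828-108950783, Lef1 at chr3:131110297-131224357 and Tcf7l2 at chr19:55741797-55933659.

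Several Wnt genes lie side by side, and 5 pairs of members were neighbours within 100 kb. Wnt6 and Wnt10a lie 6696 bases apart on chromosome 1, and both were above the control, with 78 and 172 counts for Wnt6, against 1, and 10 and 111 for Wnt10a, against 4. Wnt9a lies 16097 bases from Wnt3a on chromosome 11, and while Wnt9a had 75 and 69 counts, against 7, Wnt3a had 0 in all. Wnt3 overlaps Wnt9b, which was also at 0 throughout, and Wnt1 lies 11650 bases from Wnt10b, with at most 5 counts in the pair. Kremen1 and Znrf3 lie 14615 bases apart. Of the 15 called members, 4 overlap an annotated long non-coding RNA, namely Rnf43, Rspo1, Tcf7l2 and Wnt6. The strand setting of the counting is not given in the sources used here, so reads of such pairs cannot be told apart.

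The guides were also set side by side. Of the 52 members tested, 30 (57.7%) were at least 1.5-fold higher with both guides, beside 18.3% of all genes tested, and 5 (9.62%) at least 1.5-fold lower, beside 12.7%. Of the 30, 17 had fewer than 10 control counts, where 77.7% of all genes were that much higher. Among the 34 members with at least 10 control counts, 13 (38.2%) were at least 1.5-fold higher with both guides, beside 12.4% of all such genes, and 5 (14.7%) lower, beside 14.0%. Both guides share the 1 control library, so the sides they fall on are not independent. Ctnnb1, Fzd5, Fzd9, Kremen1, Lrp5 and Wnt3 lay on opposite sides of the control with the 2 guides. Wnt10a had the most unequal pair among members with at least 100 counts in 1 library, with sg1 at 0.101 of sg2 (counting interval 0.0471 to 0.193), and Wnt2b leaned the other way, at 3.29 (2.65 to 4.12). These gaps exceed counting error, and with 1 library per guide no test of them is possible.

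Other genes of the pathway were then read from a list of 65, of which 63 were in the table and 61 were tested. Of these 6 (9.84%) rose and 2 (3.28%) fell, beside 6.33% and 1.7% of all genes tested, and their median log2 fold change was -0.02, beside 0.06. Of the 6 that rose, 3 had fewer than 10 control counts. Igfbp4, a binding protein of insulin-like growth factors that can also bind Wnt receptors, had 74.2 and 77.6 RPKM with sg1 and sg2. It was listed at 0 in the control (2291-fold above the limit of 3 control counts, edgeR adjusted p = 1.64e-05). Frzb, the relative of the Sfrp genes that the symbol rule leaves out, had 778 and 1141 counts, against 6 (144-fold, log2 7.14, SE 0.816, edgeR adjusted p = 0.00015). Gpc4, a heparan sulphate proteoglycan of the cell surface, had 1144 and 2922 counts, against 111 (16.2-fold, edgeR adjusted p = 0.00209). The nuclear cofactor Pygo1 had 89 and 319 counts, against 0 (59.8-fold above the limit of 3 control counts, edgeR adjusted p = 0.00306).

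Wls, the carrier that brings Wnt proteins to the surface, had 28.7 and 51.4 RPKM, against 9.89 RPKM in the control (log2 2.02, edgeR adjusted p = 0.03), and Bcl9l, a cofactor of beta-catenin, had 8.92 and 13.8 RPKM, against 2.87 RPKM (log2 1.99, edgeR adjusted p = 0.0295). Both are named after their values were seen, and their calls were lost in 5 and 4 of 9 other analyses. The genes that fell were Cer1, a secreted antagonist known mainly from Nodal and BMP signalling, with 0.471 and 1.15 RPKM, against 54.4 RPKM (edgeR adjusted p = 4.38e-05), and Apc2, a relative of Apc, with 1.28 and 0.948 RPKM, against 4.92 RPKM (4.42-fold lower, log2 -2.14, SE 0.464, edgeR adjusted p = 0.0112). Of the 21 cytoplasmic genes listed, among them Dvl, Apc, Gsk3 and casein kinase genes, Apc2 was the sole call. Of 10 planar polarity genes 0 passed edgeR's test. At an unadjusted p under 0.05 in that test there were 5 of the 10, beside 2912 of all 15936 genes tested. Vangl1 alone passed in any other analysis (lowest adjusted p = 0.0257).

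The last list held 24 genes described as targets of beta-catenin and Tcf in some tissue, of which 20 were tested. Of these 7 (35%) rose and 1 (5%) fell, beside 6.33% and 1.7% of all genes tested, and the median log2 fold change was 1.5, beside 0.06. Of the 7, 4 had fewer than 10 control counts, where 32.4% of all genes were called higher. Among the 15 targets with at least 10 control counts 3 (20%) rose, beside 3.73%, and the median was 0.06, beside -0.02. The 4 with the largest log2 fold change in the lesser of the guides were Wisp1, a matricellular protein (1330 and 1271 counts with sg1 and sg2, against 0), the hyaluronan receptor Cd44 (7041 and 9594, against 21), the urokinase receptor Plaur (863 and 2219, against 7) and the AP-1 factor Fosl1 (99 and 169, against 0). Their edgeR adjusted p lay between 2.12e-05 and 0.00397. Ccnd1, Sp5 and Myc, named after their values were seen, also rose. Sp5, a factor of the Sp family, had 169 and 329 counts with sg1 and sg2, against 4 in the control. Ephb2, a receptor of ephrins, fell 2.87-fold, with 8.10 and 5.63 RPKM, against 19.7 RPKM (edgeR adjusted p = 0.0463), a call lost in 6 of 9 other analyses. Many of these genes also respond to other pathways.

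**Figure D3:**
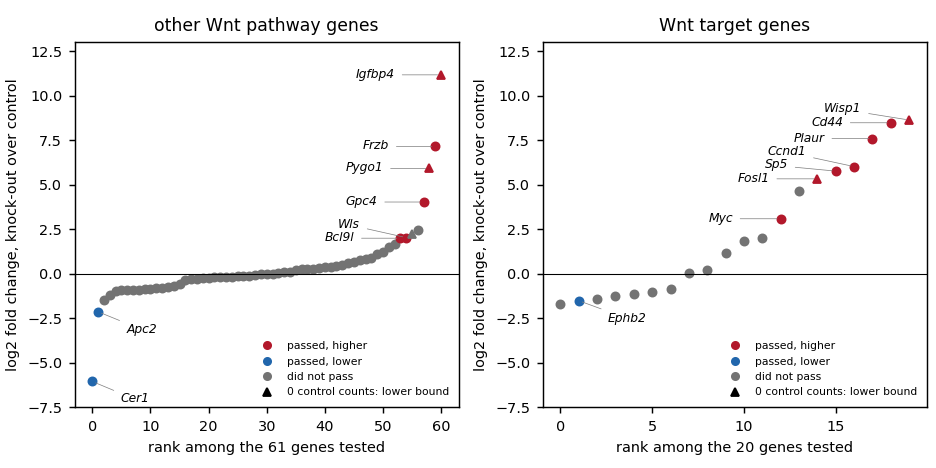
Log2 fold change, Kdm1a knock-out over control (y axis), of the 61 other Wnt pathway genes tested (left) and the 20 Wnt target genes tested (right), ordered by value (x axis); triangles are lower bounds for genes with 0 control counts. Most pathway genes lie near 0, with Igfbp4 and Frzb far above and Cer1 far below, while the targets spread from Wisp1 and Cd44 at the top down to Prox1, which did not pass, and Ephb2, which did.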

How the data were processed

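For 24523 genes, the deposited table holds unnormalized counts of reads in each library, and RPKM made by the authors, per the file headers. The build mm10 and the tools TopHat2 2.0.12, Bowtie2 2.2.3 and HTSeq 0.6.1 were named per the submitters' processing notes; settings were not given in the sources used here. The authors' deposited lists of changed genes were not used. Groups came from the sample titles and genotype labels. Counts were tested with edgeR 4.0.16 (R 4.3.3; TMM, filterByExpr, quasi-likelihood F test of knock-out against control), adjusted by Benjamini and Hochberg over 15936 genes kept; 8587 were not tested. The spread had 1 residual and 11.5 prior degrees of freedom. The SE is the log2 fold change over the square root of F. Folds are ratios of mean CPM scaled to effective library size. For 0 control counts the limit of 3 counts, 0.0692 CPM per library, replaced the control. Folds over that limit leave out the counting error of the knock-out libraries. Per-guide folds used a prior count of 2. Intervals are 95% exact (Clopper-Pearson). The scripts were tested on simulated data.

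Members and lists were chosen with earlier results of these data known. Named genes were Kdm1a, every member that passed, the 2 most abundant per role, members with at least 10 counts whose call changed in another analysis, and up to 4 genes per direction of the other lists; the remaining members are given in brief. Positions and promoters are RefSeq, GRCm38.p6, matched by Entrez identifier for 62 of 62 members. Alternatives were DESeq2 1.42.0 size factors, upper-quartile factors, library totals alone, no filter, limma-voom and limma-trend (limma 3.58.1) on log2(RPKM + 1), the DESeq2 Wald test, genes averaging 50 counts or more, other prior counts, a 2-fold threshold, a 150-base promoter window, and each guide omitted in turn. Removal of the length trend by loess was added once the data had been seen.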

Additional observations from a re-analysis of the deposited data

How the results depend on the processing

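Of 38 named genes other than Kdm1a, under 9 other analyses, 292 of 340 values kept their direction and side of the threshold, 40 lost the call, 7 gained it and 1 changed sign (Ctnnb1, log2 0.033 with the length trend removed). Members called higher numbered 7 with limma-voom and 0 with limma-trend, and members called lower 0 with limma-trend. Over all genes, higher calls numbered 513 with limma-voom and 27 with limma-trend, and lower calls 178 with library totals, 511 with no filter, 180 at a mean count of at least 50, 4 with limma-trend and 155 with the length correction. Other pathway genes higher numbered 3 with limma-voom and 1 with limma-trend, and lower 1 with limma-trend. Targets called higher numbered 2 with limma-trend. Targets called lower numbered 4 with no filter, 2 with the DESeq2 Wald test, and 0 with upper-quartile factors, library totals, limma-voom, the length correction, limma-trend and a mean count of at least 50. Kdm1a passed with DESeq2 size factors (log2 -1.41), no filter (-1.39), the DESeq2 Wald test (-1.41) and the length correction (-1.38). The cause of these changes was not tested. With 1 guide left out, which leaves 1 library against 1 and no test, 31 to 32 members were at least 1.5-fold higher and 7 to 9 lower; the log2 fold change of Kdm1a was -1.59 to -1.23. At a 2-fold threshold 2 members were lower with both guides. In the 150 bases nearest the window's end, 2, 1 and 0 member windows held the Tcf, TEAD and AP-1 motifs. No paired analysis was possible because the control has 1 library. Members under about 10 counts are limited by depth.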
